A study of Mus musculus with 18 samples.

Results

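Phospholipase C splits the membrane lipid PIP2 into diacylglycerol and IP3, and the 9 genes described here stand on either side of that step. Of these, 5 encode kinases of the steps that lead to PIP2, Cds2 encodes an enzyme that rebuilds its precursor, and 3 encode the IP3 receptors. They were chosen by name from the 23457 genes of a table of read counts, and all 9 were found there and in a companion table of FPKM (fragments scaled to exon length and sequencing depth). The hearts came from 18 male C57BL/6 mice, 17 weeks old, in 3 groups of 6 named for their vector: rAAV6-blank, which has a promoter and makes no protein, rAAV6-PLCβ1a and rAAV6-PLCβ1b. PLCβ1a and PLCβ1b are splice variants of the same lipase, PLCβ1a being described as inactive in heart, and the vectors were given into the tail vein at a young adult age. The labels name both ventricles as the tissue, whereas the methods of the study name the left ventricle. Each heart is a separate animal. RNA depleted of ribosomal RNA gave 13246339 to 24155465 counts per heart, of which 3908354 to 7591558 fell on nuclear genes.

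PIP2 is made from phosphatidylinositol in a pair of steps. Phosphatidylinositol 4-kinases (Pi4ka mainly at the plasma membrane, Pi4kb mainly at the Golgi) make PI4P, and type I PIP 5-kinases (Pip5k1a, Pip5k1b and Pip5k1c) add the next phosphate. The diacylglycerol that phospholipase C leaves is turned back to phosphatidylinositol by way of CDP-diacylglycerol, which Cds2 makes. IP3 opens the receptors Itpr1, Itpr2 and Itpr3, calcium channels of internal stores. In ventricular myocytes these are far outnumbered by ryanodine receptors, and Itpr2 is known as the main IP3 receptor of those cells.

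Levels of different genes were compared as FPKM, which is scaled for gene length. In blank hearts the order of mean levels was Cds2 (9.56 to 12.4 FPKM), Pi4ka (mean 5.52 ± 0.434, SD, n = 6), Itpr1 (5.04 ± 0.156), Pip5k1b (4.87 ± 0.503), Pi4kb (3.90 ± 0.301), Pip5k1c (2.86 ± 0.391), Itpr2 (2.43 ± 0.206), Pip5k1a (2.39 ± 0.343) and Itpr3 (0.797 ± 0.165). Several neighbours in this order did not differ beyond their spread. Itpr1 was above Pip5k1b in 3 of 6 blank hearts, and Itpr2 was above Pip5k1a in 2 of 6. Pi4ka exceeded Itpr1 in 15 of all 18 hearts. The top and the bottom of the order were the same in every heart, with Cds2 above Pi4ka in 18 of 18 and Pip5k1a above Itpr3 in 18 of 18. Against the 13701 genes with an FPKM above 0 in every blank heart, whose median was 2.45 FPKM, Cds2 lay above 85.3% and Itpr3 above 25.4%. Pi4ka, Itpr1 and Pip5k1b lay above 71.9%, 69.6% and 68.6%, and the remaining genes above 49.3% (Pip5k1a) to 62.8% (Pi4kb). The levels thus ran from below the median to well above it, and Itpr3 was the scarcest gene.

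**Figure D1:**
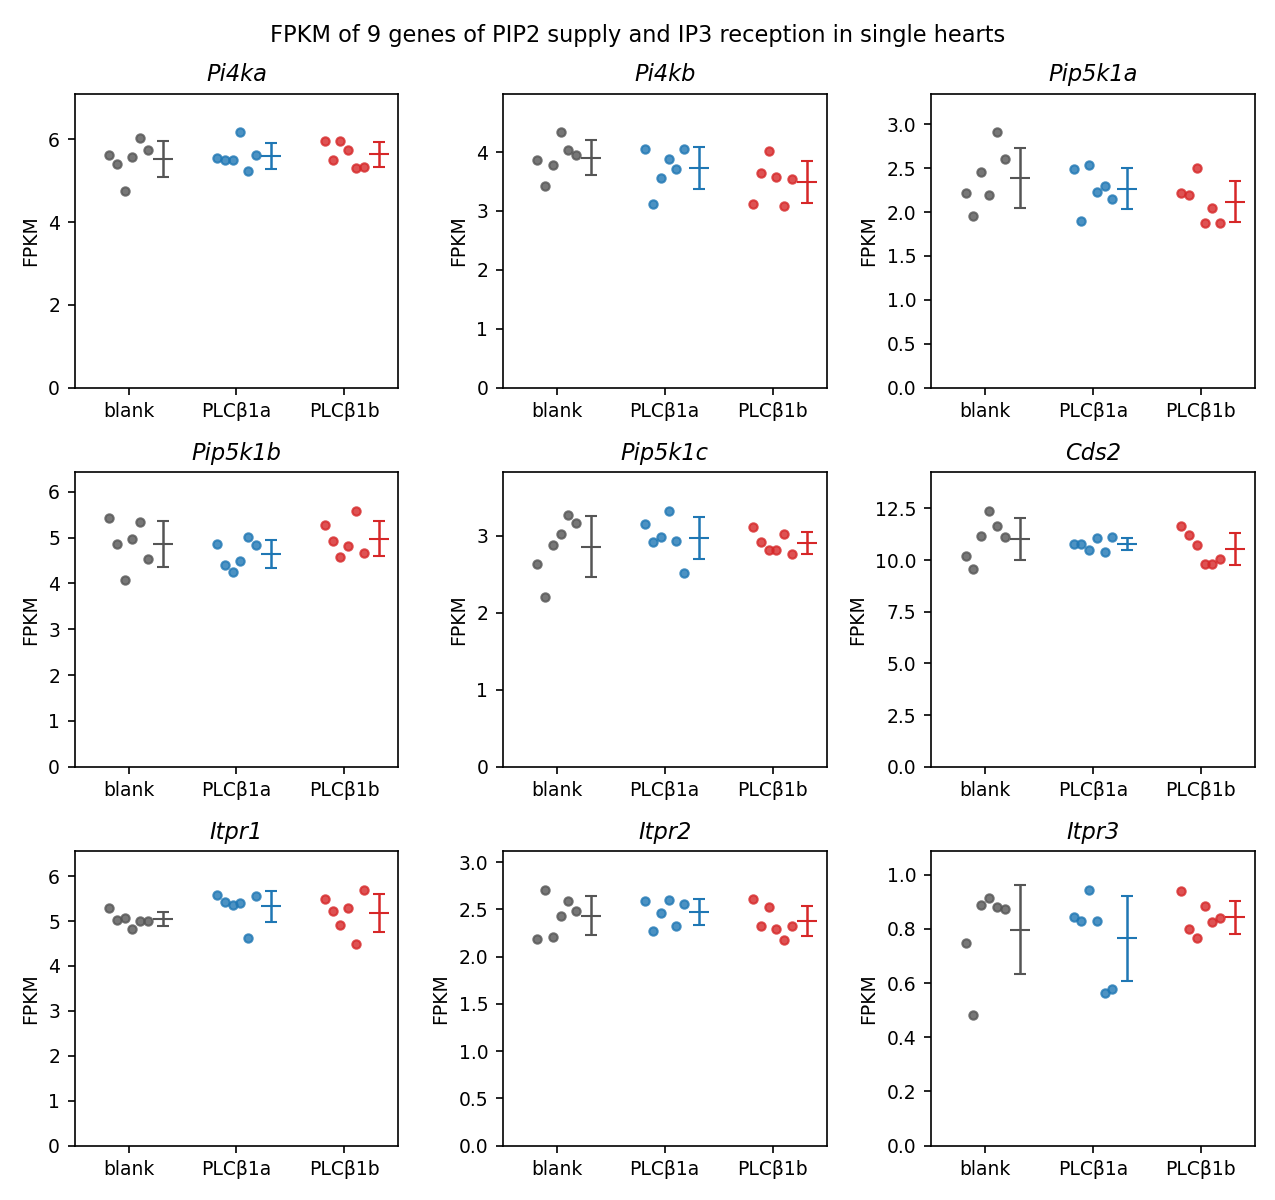
FPKM (vertical axis, from 0) of the 9 genes in single hearts of the blank, PLCβ1a and PLCβ1b groups. Each point is a heart, and the bar beside each group is its mean ± SD (n = 6). For each gene the 3 groups overlap.

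As a check of the labels, Plcb1, the gene that both vectors carry, had a mean FPKM of 0.986 with the blank vector, 3.86 with PLCβ1a and 8.28 with PLCβ1b. Against blank hearts this was a log2 fold change of 2.90 (PLCβ1b) and 1.82 (PLCβ1a), and in each group 6 of 6 hearts were above all blank hearts in CPM (counts scaled to sequencing depth by TMM). The lipase transcript was thus raised in every PLCβ1a and PLCβ1b heart. The 9 genes around it were then read from the same fit, edgeR's quasi-likelihood test over 12281 genes, with a call at a Benjamini-Hochberg false discovery rate (FDR) below 0.1.

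None of the 9 genes passed in any comparison. For PLCβ1b against blank, 0 of 9 were called by edgeR's quasi-likelihood test, where 0.0977% of all genes were. At an unadjusted p below 0.05 there were 0 of 9 (7.41% of all genes), and 0 of 9 had groups that did not overlap in CPM (0.48% of all genes). Of the 9 log2 fold changes 5 were positive and 4 negative, with a median of 0.015, against a median of -0.00089 over all genes. The sizes of the changes had a median of 0.079 on the log2 scale, next to 0.071 over all genes. DESeq2, edgeR's exact test and limma on log2 FPKM also called 0 of 9, and all of them had 0 at an unadjusted p below 0.05.

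For PLCβ1a against blank, which uses the same blank hearts, edgeR's quasi-likelihood test again called 0 of 9 (0.138% of all genes were called). Here 1 of 9 had an unadjusted p below 0.05 (8.58% of all genes) and 0 of 9 had groups without overlap (0.594% of all genes). That gene was Itpr1. The median log2 fold change was 0.0095 (all genes -0.0018), with 5 positive and 4 negative, and the median size was 0.031, below the 0.073 of all genes. The median standard error was smaller as well, at 0.068 against 0.093 over all genes, so these sizes are not measured with equal precision. DESeq2, the exact test and limma called 0 of 9 as well, with Itpr1 alone at an unadjusted p below 0.05 in DESeq2 and the exact test and 0 genes there in limma.

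For PLCβ1b against PLCβ1a, the comparison of the variants with each other, 0 of 9 were called (0% of all genes were). At an unadjusted p below 0.05 there were 0 of 9 (4.42% of all genes), and 0 of 9 lacked overlap (0.179% of all genes). Over the 9 genes the median log2 fold change was -0.033 (all genes 0.00088), with 3 positive and 6 negative, and the median size was 0.052 (all genes 0.061). Their median standard error was 0.069 (all genes 0.092). The other programs called 0 of 9 and had 0 at an unadjusted p below 0.05. In the quasi-likelihood fit Plcb1 itself was at 1.09 (standard error 0.22) on the log2 scale between these groups. In CPM 5 of 6 PLCβ1b hearts were above all PLCβ1a hearts. Plcb1 was not called (FDR 0.801 in that test), so the share of 0% comes from a test that missed this difference. The variant and the level of its transcript differ together here and cannot be told apart. A p that misses the threshold does not show that levels were equal, so 95% intervals are given, those against blank with each gene and those between PLCβ1b and PLCβ1a here. For the kinases that make PI4P the interval of PLCβ1b against PLCβ1a was -5.59% to 7.17% (Pi4ka) and -15.6% to 2.40% (Pi4kb). For the type I PIP 5-kinases it was -18.7% to 6.53% (Pip5k1a), -4.21% to 17.8% (Pip5k1b) and -11.9% to 8.09% (Pip5k1c). For Cds2 it was -7.82% to 3.65%. Each of these intervals holds 0, as do those of the IP3 receptors, -8.77% to 4.75% (Itpr1), -9.98% to 3.35% (Itpr2) and -9.54% to 21.3% (Itpr3). Over the 9 genes and the 3 comparisons the lowest bound was a change of -20.5% (Pip5k1a, PLCβ1b against blank) and the highest was 23.4% (Itpr3, PLCβ1b against blank).

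**Figure D2:**
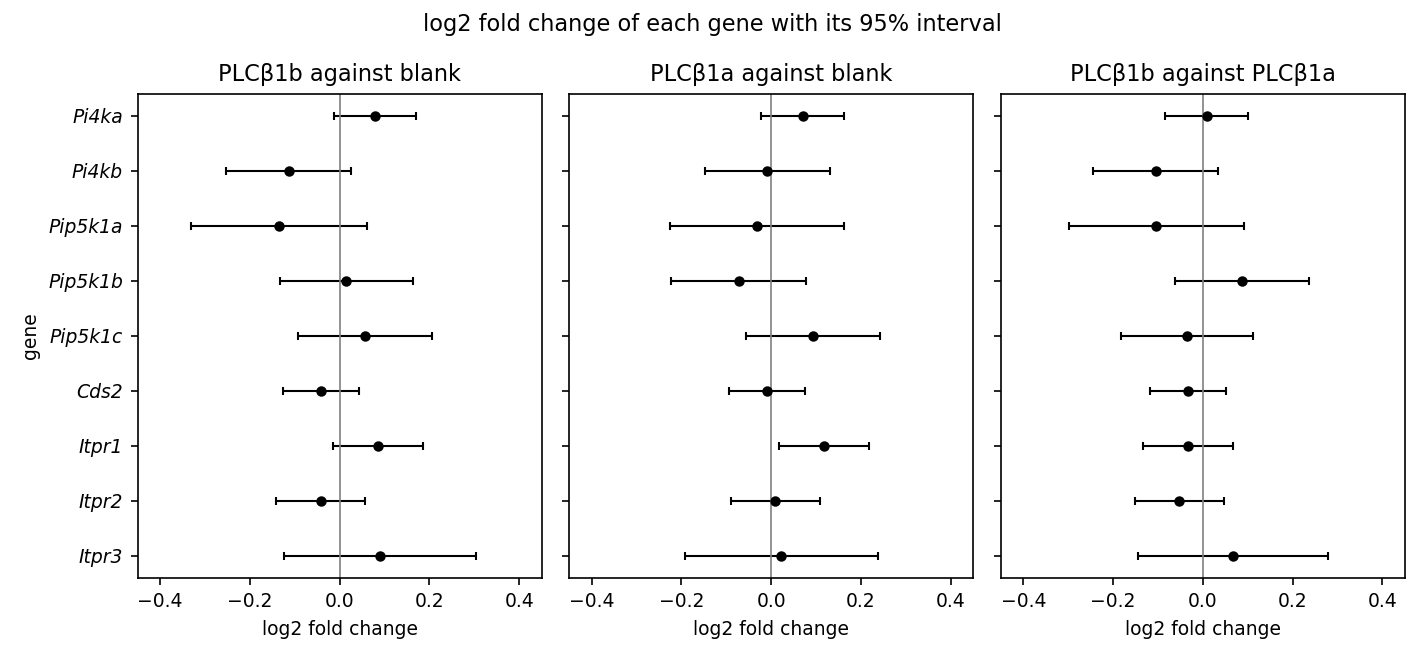
log2 fold change (horizontal axis) of each gene in the 3 comparisons, from edgeR's quasi-likelihood fit. Points are estimates and bars 95% intervals. The interval leaves out 0 only for Itpr1 in PLCβ1a against blank, at 0.12 (0.018 to 0.22), which was not called.

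The kinases that make PI4P come first in the pathway. Pi4ka lies on chromosome 16 of mm10 from 17280351 to 17406314, on the minus strand, and shares 60 exon bases with genes of the opposite strand; the counting kept strand. Its FPKM was 4.74 at the lowest, 5.60 at the median and 6.03 at the highest in blank hearts, 5.23, 5.52 and 6.18 in PLCβ1a hearts, and 5.32, 5.63 and 5.97 in PLCβ1b hearts. The groups overlapped, and the lowest heart of all was blank 32. In CPM 3 of 6 PLCβ1b hearts and 3 of 6 PLCβ1a hearts were above all blank hearts. Its log2 fold change against blank hearts was 0.079 (standard error 0.045) for PLCβ1b and 0.070 (standard error 0.046) for PLCβ1a, with an FDR of 0.744 and 0.704 from edgeR's quasi-likelihood test. As a percent change the intervals were -0.919% to 12.6% and -1.51% to 11.9%.

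Pi4kb, on chromosome 3 from 94974731 to 95006843, shares 142 exon bases with Zfp687 on the opposite strand. Its FPKM ran from 3.43 over a median of 3.91 to 4.34 in blank, from 3.12 over 3.80 to 4.05 in PLCβ1a and from 3.08 over 3.55 to 4.02 in PLCβ1b hearts. The PLCβ1b hearts reached lower than the others, with 2 of 6 below all blank hearts in CPM, but most lay within the blank range. For Pi4kb the log2 fold change was -0.11 (standard error 0.069, interval -16.1% to 1.82%) in PLCβ1b hearts, -0.0087 (standard error 0.068, interval -9.72% to 9.43%) in PLCβ1a hearts, and -0.10 (standard error 0.069) between PLCβ1b and PLCβ1a. Pi4ka was the more abundant of the pair in 18 of 18 hearts. It made up 58.6% ± 2.20 (SD, n = 6) of their summed FPKM in blank hearts, then 60.0% ± 2.35 with PLCβ1a and 61.8% ± 2.35 with PLCβ1b. The share was lowest at 55.6% and highest at 61.2% in blank hearts, and 59.8% to 65.7% in PLCβ1b hearts, so the groups overlapped; no test was made of the shares.

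The type I PIP 5-kinases make PIP2 itself, each at its own set of membranes. Pip5k1b, on chromosome 19 from 24294796 to 24555827, was the most abundant of the 3. It held 48.2% ± 4.45 (SD, n = 6) of their summed FPKM in blank hearts, then 47.0% ± 2.72 with PLCβ1a and 49.8% ± 2.01 with PLCβ1b. Pip5k1c, the isoform known for its role at focal adhesions and synapses, took 28.2% ± 2.63, 30.1% ± 2.30 and 29.1% ± 0.555, and Pip5k1a took 23.6% ± 2.21, 22.9% ± 1.79 and 21.2% ± 2.18. The order of the 3 isoforms by mean share was the same in each group, and the shares of single hearts overlapped between groups.

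Pip5k1a, on chromosome 3 from 95059596 to 95106858, had the largest estimate of the 9 genes. Its FPKM was 1.95 at the lowest, 2.34 at the median and 2.91 at the highest in blank hearts, 1.90, 2.26 and 2.53 in PLCβ1a hearts, and 1.88, 2.12 and 2.50 in PLCβ1b hearts. In CPM 3 of 6 PLCβ1b hearts were below all blank hearts and the rest lay among them. With 66 to 142 counts per heart it had the lowest mean count of the 9. Its fold changes on the log2 scale were -0.14 (standard error 0.097, interval -20.5% to 4.28%) for PLCβ1b and -0.031 (standard error 0.096, interval -14.4% to 11.9%) for PLCβ1a.

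Pip5k1b ran from 4.08 over a median of 4.92 to 5.42 FPKM in blank, from 4.26 over 4.66 to 5.01 in PLCβ1a and from 4.59 over 4.88 to 5.59 in PLCβ1b hearts. As log2 fold changes the comparisons with blank gave 0.015 (standard error 0.074, interval -8.86% to 12.1%) for PLCβ1b and -0.072 (standard error 0.074, interval -14.3% to 5.59%) for PLCβ1a. The groups overlapped, with blank 32 lowest and PLCβ1b 16 highest. Pip5k1c, on chromosome 10 from 81292972 to 81319974, ran from 2.21 over 2.95 to 3.27 FPKM in blank, from 2.52 over 2.96 to 3.33 in PLCβ1a and from 2.76 over 2.87 to 3.11 in PLCβ1b hearts. In CPM 4 of 6 PLCβ1a hearts were above all blank hearts, while PLCβ1a 21 was lower than 5 of the 6. Against blank, the log2 fold change of Pip5k1c was 0.057 (standard error 0.074, interval -6.18% to 15.4%) for PLCβ1b and 0.093 (standard error 0.074, interval -3.84% to 18.2%) for PLCβ1a. Without blank 30, its lowest heart, the PLCβ1b value was 0.00788 and the PLCβ1a value 0.0433.

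Cds2 carries the diacylglycerol left by the lipase back towards phosphatidylinositol, and lies on chromosome 2 from 132263257 to 132312041. It was the most abundant of the 9 genes and the one with the smallest standard errors, with 1001 to 1819 counts per heart. Its FPKM was 9.56 at the lowest, 11.1 at the median and 12.4 at the highest in blank hearts, 10.4, 10.8 and 11.1 in PLCβ1a hearts, and 9.79, 10.4 and 11.7 in PLCβ1b hearts. Blank hearts held both the lowest and the highest heart in the series. For Cds2 the change on the log2 scale was -0.042 (standard error 0.042, interval -8.40% to 3.02%) for PLCβ1b and -0.0090 (standard error 0.042, interval -6.29% to 5.39%) for PLCβ1a.

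**Figure D3:**
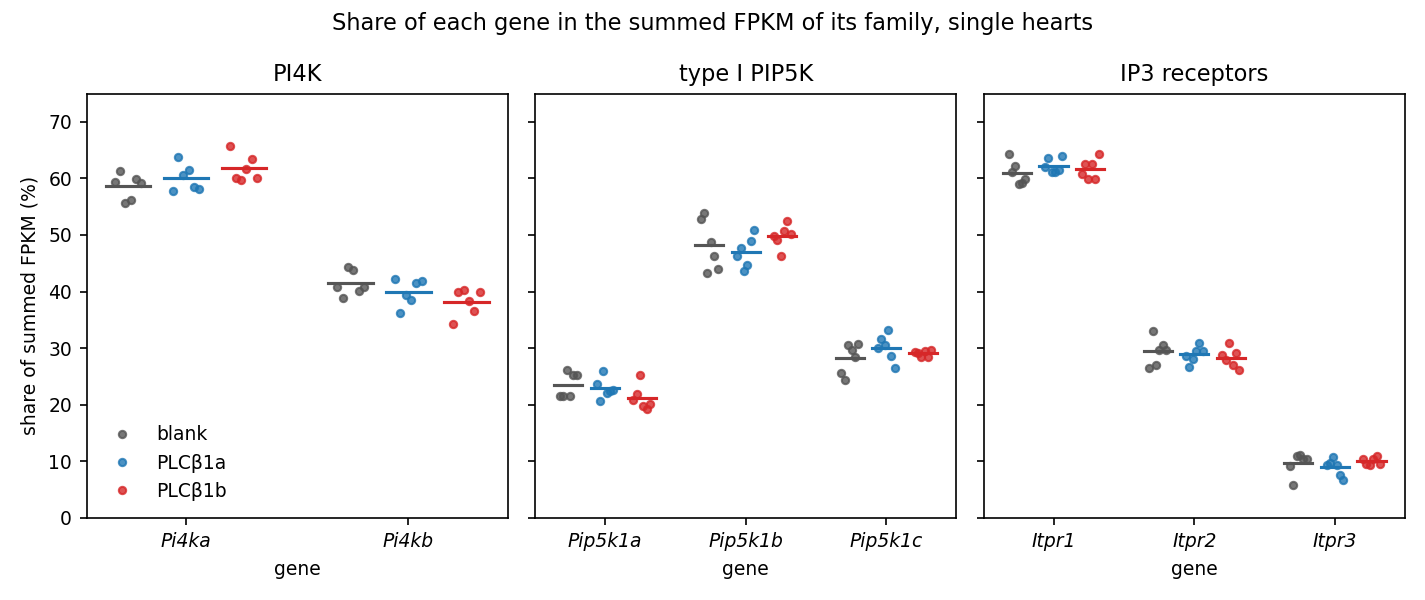
Share (vertical axis, percent) of each gene in the summed FPKM of its family, for the phosphatidylinositol 4-kinases, the type I PIP 5-kinases and the IP3 receptors. Points are single hearts and lines group means (n = 6). The order of the genes within each family is the same in the 3 groups, and Itpr1 takes 61.0% of the IP3 receptor sum in blank hearts.

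The IP3 receptors receive the other product of the lipase. Itpr1, on chromosome 6 from 108213096 to 108551116, made up 61.0% ± 2.06 (SD, n = 6) of their summed FPKM in blank hearts, then 62.2% ± 1.21 with PLCβ1a and 61.7% ± 1.77 with PLCβ1b. Itpr2, on chromosome 6 from 146108299 to 146502223, took 29.4% ± 2.37, 28.9% ± 1.44 and 28.3% ± 1.63. Itpr3, on chromosome 17 from 27057304 to 27122223, took the least, at 9.64% ± 1.98 with the blank vector, 8.90% ± 1.53 with PLCβ1a and 10.05% ± 0.662 with PLCβ1b. By the median its share was 10.4% in blank hearts and 9.99% in PLCβ1b hearts, so the order of these groups turned round, the lowest share being 5.87% in blank 30. In each of the 18 hearts Itpr1 was above Itpr2 and Itpr2 above Itpr3, the ratio of Itpr1 to Itpr2 lying between 1.86 and 2.45. In bulk tissue these levels belong to all cells of the ventricle together, and fewer cells of a type and less RNA per cell cannot be told apart. All 3 receptors were minor beside Ryr2, the ryanodine receptor of heart muscle, at 116 FPKM in blank hearts. The ratio of Ryr2 to Itpr1 had a mean of 22.5 over the 18 hearts (18.7 to 27.2), and that of Ryr2 to Itpr2 a mean of 48.0 (41.0 to 54.0).

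Itpr1 was the gene nearest to a difference. Its FPKM was 4.82 at the lowest, 5.02 at the median and 5.30 at the highest in blank hearts, 4.63, 5.41 and 5.59 in PLCβ1a hearts, and 4.49, 5.25 and 5.69 in PLCβ1b hearts. On this scale 5 of the PLCβ1a hearts were above every blank heart, and PLCβ1a 14 was below every blank heart. In CPM the picture was another: PLCβ1a hearts ran from 48.9 to 51.9 and blank hearts from 42.9 to 50.9, with 2 of 6 PLCβ1a hearts above all blank hearts. The PLCβ1a change in Itpr1 was 0.12 on the log2 scale (standard error 0.050, interval 1.23% to 16.3%), with an unadjusted p of 0.0225 and an FDR of 0.481 from edgeR's quasi-likelihood test. It was 0.085 (standard error 0.050, interval -1.04% to 13.7%) for PLCβ1b, with an FDR of 0.744, and -0.033 (standard error 0.049) between PLCβ1b and PLCβ1a. The PLCβ1b value ran from 0.0486 to 0.115 with single hearts left out and was 0.136, with an unadjusted p below 0.05, without the 3 hearts of lowest total count, a setting chosen after seeing the data. The gene had rank 571 of 12281 by p in PLCβ1a against blank. Limma on log2(FPKM + 0.1) gave an unadjusted p of 0.216 for it. With single hearts left out, the unadjusted p was below 0.05 in 15 of 18 cases, from 0.00634 without blank 26 to 0.0693 without blank 33. It was also above 0.05 without blank 34 (0.0577) or blank 36 (0.0526), and these 3 were the blank hearts with the lowest Itpr1 in CPM. The 18 cases include the 6 PLCβ1b hearts, which are not in this comparison and could move its p only a little. Without any of these the quasi-likelihood p ran from 0.0156 (PLCβ1b 17) to 0.0241 (PLCβ1b 4), so such cases say little about how it holds. Over 29 settings, those cases included, the unadjusted p was below 0.05 in 24. The lowest was 0.0033, without blank 26, blank 32 and PLCβ1a 14, the 3 hearts of lowest total count.

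Itpr2 ran from 2.18 over a median of 2.45 to 2.71 FPKM in blank, from 2.28 over 2.51 to 2.60 in PLCβ1a and from 2.18 over 2.32 to 2.61 in PLCβ1b hearts. In CPM 2 of 6 PLCβ1b hearts were below all blank hearts and 3 of 6 below all PLCβ1a hearts, and the groups overlapped. On the log2 scale Itpr2 differed from blank by -0.043 (standard error 0.049, interval -9.41% to 4.07%) for PLCβ1b and 0.0095 (standard error 0.049, interval -6.07% to 7.88%) for PLCβ1a. Itpr3 was 0.482 at the lowest, 0.876 at the median and 0.913 at the highest in blank hearts, 0.563, 0.830 and 0.944 in PLCβ1a hearts, and 0.767, 0.833 and 0.940 in PLCβ1b hearts. The low hearts were blank 30 in the blank group and PLCβ1a 14 and PLCβ1a 21 in the PLCβ1a group, and the PLCβ1b group had no such heart. On the log2 scale Itpr3 differed from blank by 0.090 (standard error 0.11, interval -8.24% to 23.4%) for PLCβ1b and 0.023 (standard error 0.11, interval -12.5% to 17.9%) for PLCβ1a, and the latter turned negative in limma on log2(FPKM + 0.1), at -0.0498. Without blank 30 the estimates for Itpr3 were -0.00434 for PLCβ1b and -0.0709 for PLCβ1a, so neither was positive without that heart, and that for PLCβ1a was also negative without PLCβ1a 9 or PLCβ1a 11.

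The 9 genes were mostly ordinary in how much they varied between hearts. The biological coefficient of variation, the spread between hearts beyond counting error, was 0.0424 for Pi4ka and 0.0980 for Itpr3, the extremes of the 9, with a median of 0.0662 over all genes tested. Among the genes nearest in mean count, the within-group SD of log2 CPM placed Pi4ka at the 11.2 percentile and Itpr2 at the 15.4 percentile, so these were steady genes. Itpr3 stood at the 92.8 percentile and varied 1.85 fold in CPM between its lowest heart, blank 30, and its highest, PLCβ1a 11. The heart blank 30 was unusual among the 9 genes, with the lowest CPM of Itpr3, Pip5k1c and Cds2 and the highest of Itpr2.

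**Figure D4:**
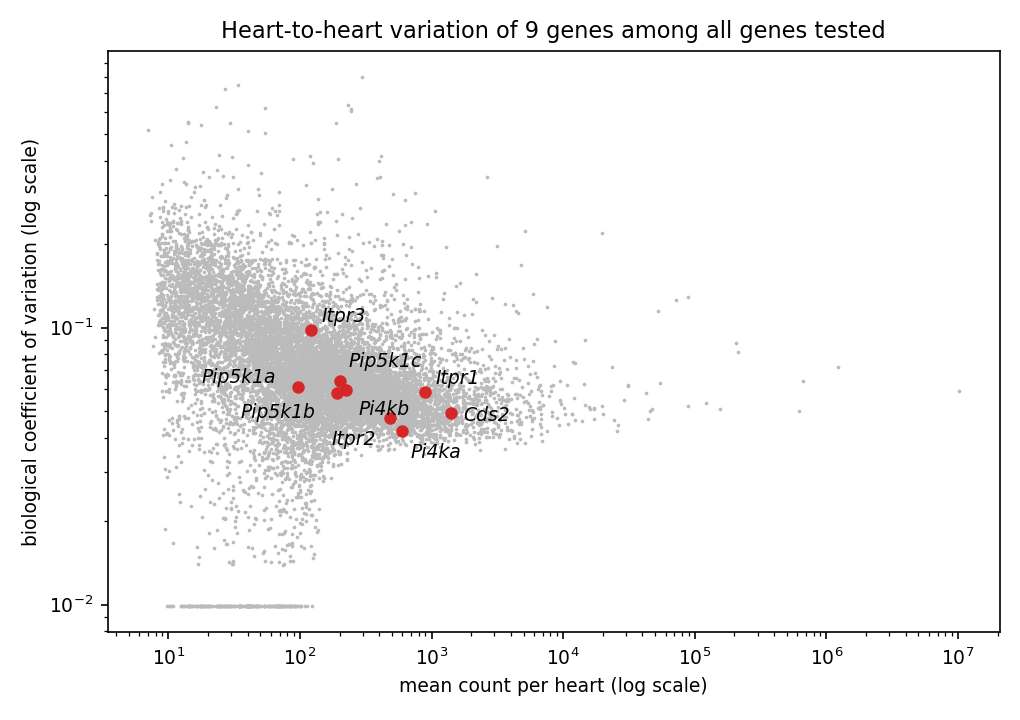
Biological coefficient of variation (vertical axis, log scale) against mean count per heart (horizontal axis, log scale). Grey points are the 12281 genes tested and red points the 9 genes named; the row of grey points at the bottom holds genes at the lowest value the estimate allows. Itpr3, at 0.0980, lies above the other 8 genes.

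For each gene the 2 genes with the most similar pattern of log2 CPM over the 18 hearts were looked up among 12280 others. These were chosen as the highest of many, so r is a description and no p is given. Pip5k1b went most closely with Homer1 (r = 0.82, Spearman's rho 0.72), a scaffold protein of excitable cells, and with Atxn10 (r = 0.78). Itpr1 went with Rfx7 (r = 0.81, rho 0.75) and Pla2g16 (r = 0.80, rho 0.80), Pi4kb with Slc6a9 (r = 0.83) and Alg8 (r = 0.80), and Pi4ka with C1qtnf2 (r = 0.79) and Mtus1 (r = 0.77). With the 2 most distant hearts left out, these coefficients lay between 0.66 and 0.78. Cds2 was most like Abca12 (r = 0.82) and 2310040G24Rik (r = 0.77), Pip5k1a was most like Bag4 (r = 0.78) and Mrps22 (r = 0.75), Pip5k1c like Fam171b (r = 0.82) and Ptpn7 (r = 0.79), and Itpr2 like Sars (r = 0.80) and Xirp1 (r = 0.78). Itpr3 had the highest coefficients, with Ptpn7 (r = 0.87) and Klhl38 (r = 0.84). Several of these rested on a pair of hearts: with the same omission r was 0.44 for Itpr3 with Ptpn7, 0.43 for Itpr3 with Klhl38, 0.24 for Pip5k1c with Ptpn7 and 0.18 for Itpr2 with Xirp1. Some neighbours were scarce, with a mean CPM of 0.48 (Ptpn7), 0.62 (Slc6a9), 0.67 (Fam171b) and 1.1 (C1qtnf2), while others reached 90.3 (Mtus1). Counting error weighs more in the patterns of the scarce ones.

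The rest of the pathway was read in 6 lists of 68 genes, 64 of which were tested. In edgeR's quasi-likelihood test 0 of 64 were called in each of the 3 comparisons, and DESeq2, the exact test and limma also called 0 of 64. At an unadjusted p below 0.05 there were 6 (9.38%) for PLCβ1b against blank, where all genes gave 7.41%, then 8 (12.5%, all genes 8.58%) for PLCβ1a against blank and 1 (1.56%, all genes 4.42%) between PLCβ1b and PLCβ1a. The median log2 fold change was -0.0018 for PLCβ1b and 0.0051 for PLCβ1a. These lists lay close to the background, and the genes named below are among those of lowest p in each list.

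Among the other enzymes of phosphatidylinositol and PIP2 synthesis (12 of 13 tested), the lowest p belonged to Pi4k2b, a type II phosphatidylinositol 4-kinase, at a log2 fold change of 0.37 (standard error 0.17) for PLCβ1b, and Cdipt, the phosphatidylinositol synthase, at 0.17 (standard error 0.082) for PLCβ1a. Next were Pip4k2b at 0.082 for PLCβ1b and Pip4k2a at 0.22 for PLCβ1a, both type II PIP kinases. Of the 14 genes for lipid transfer and for the complex that holds Pi4ka at the plasma membrane, Fam126b, a subunit of that complex, was at -0.18 (standard error 0.069) for PLCβ1b and -0.17 (standard error 0.069) for PLCβ1a, against the same blank hearts. Its FDR was 0.564 and 0.465 in edgeR's quasi-likelihood test. Acbd3, which recruits Pi4kb to the Golgi, was at -0.13 for PLCβ1b, and Efr3b, a membrane anchor of Pi4ka, was at 0.17 for PLCβ1a.

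The phosphatases that remove PIP2 or PI4P (11 of 11 tested) were led by Inpp5k, a 5-phosphatase, at 0.18 (standard error 0.066) for PLCβ1b and 0.15 (standard error 0.067) for PLCβ1a. Its FPKM ran from 3.71 to 4.85 in blank and from 4.26 to 5.65 in PLCβ1b hearts, so the groups overlapped. Sacm1l, which removes phosphate from PI4P, was at -0.11 for PLCβ1b and Synj2 at 0.20 for PLCβ1a. Of the enzymes that remove IP3 or its products (8 of 9 tested), Inpp5a, the IP3 5-phosphatase, was the most abundant at 27.7 FPKM in blank hearts and stood at -0.12 (standard error 0.044, FDR 0.380 in edgeR's quasi-likelihood test) for PLCβ1a. Itpkc, an IP3 3-kinase, was at 0.34 for PLCβ1b, followed by Itpk1 at 0.25, and Inpp4b was at 0.11 for PLCβ1a.

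Among 17 tested partners of the IP3 receptors, the lowest FDR for PLCβ1b was that of Bcl2l1, which encodes Bcl-xL, a survival protein that binds IP3 receptors, at 0.348 in edgeR's quasi-likelihood test. Its difference from blank on the log2 scale was -0.27 (standard error 0.081). Ahcyl2, of the family of IP3 receptor binding proteins, was at 0.19 for PLCβ1b, and Itprip at 0.25 for PLCβ1a. Of the ryanodine receptors, Ryr2 was at -0.026 (standard error 0.043) for PLCβ1b and 0.050 (standard error 0.043) for PLCβ1a. Ryr3 was at 0.16 and 0.25 with standard errors of 0.26, and Ryr1 was too low to test.

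Marker genes showed the tissue to be ventricular muscle with other cells in it. The most abundant cardiomyocyte marker was Myl2, the ventricular myosin light chain, at 5611 FPKM in blank hearts, and the 7 cardiomyocyte markers summed to 14906 in blank hearts, then 14507 with PLCβ1a and 14436 with PLCβ1b. Endothelial markers, led by Cdh5, summed to 89.1, 89.6 and 91.2 FPKM, fibroblast markers, led by Dcn, to 182, 189 and 190, and smooth muscle markers, led by Acta2, to 41.0, 40.9 and 41.4. Leukocyte markers (Lyz2) summed to 74.4, 67.9 and 70.1, and erythrocyte markers to 375, 524 and 436. Most of the erythrocyte sum is from Hba-a1, Hba-a2 and Hbb-b1, which have 0 counts in every heart in the count table, so the tables disagree on these genes and only Alas2 of this list was tested. Adipocyte markers (Cfd), at 0.832, 1.72 and 0.799, were low. Atrial markers, led by Nppa, summed to 86.7, 82.1 and 76.2.

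Of 37 marker genes tested, edgeR's quasi-likelihood test called 0 in each comparison, with 4 (10.8%, all genes 7.41%), 5 (13.5%, all genes 8.58%) and 3 (8.11%, all genes 4.42%) at an unadjusted p below 0.05. DESeq2 and limma also called 0, and the exact test called 1, Alas2 in PLCβ1a against blank (FDR 0.0609). In the quasi-likelihood fit Alas2 was at 0.63 (standard error 0.20) for PLCβ1a and 0.22 (standard error 0.21) for PLCβ1b. Cfd was at 0.97 (standard error 0.54) for PLCβ1a and -0.22 (standard error 0.64) for PLCβ1b. The fibroblast gene Lum had the lowest FDR in that fit, at a log2 fold change of 0.23 (standard error 0.064) for both PLCβ1b and PLCβ1a. Col3a1 was at 0.19 and 0.17, and all 6 fibroblast markers were positive in both comparisons, which share the blank hearts. Cdh5 was at 0.14 and 0.11, where 5 of 6 endothelial markers were positive for PLCβ1b and 4 of 6 for PLCβ1a. The heart muscle actin Actc1 was at -0.10 and -0.12, while 2 of 7 cardiomyocyte markers were positive for PLCβ1b (median -0.026) and 5 of 7 for PLCβ1a (median 0.011). Of 4 atrial markers 0 were positive for PLCβ1b (median -0.36) and 3 for PLCβ1a (median 0.024). Sln was at -0.62 (standard error 0.35) for PLCβ1b, without overlap in CPM (0.48% of all genes had none), and at 0.27 (standard error 0.32) for PLCβ1a, and was not called. Whether the number of any of these cells had a part in the levels of the 9 genes was not tested.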

How the data were processed

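The authors aligned strand-specific paired reads to mm10 with TopHat and made the deposited counts per gene with HTSeq in union mode, without normalization. They also deposited FPKM; the submitters' processing notes list Cufflinks 2.1, whose role is not given in the sources used here. TMM scaling of the counts came first, then the test in edgeR 4.0.16 (R 4.3.3) with the quasi-likelihood F test, all 18 hearts in a model of the 3 groups, after filterByExpr (minimum count 10, minimum total 15), with Benjamini-Hochberg adjustment over 12281 genes. Robust estimation of the quasi-dispersion was chosen after the calls with and without it had been seen, so as to match an earlier analysis of these counts. Standard errors come from the F statistic. Alternatives used DESeq2 1.42.0, limma 3.58.1 and other scalings, and the tests were tested on simulated data. Figures used matplotlib 3.10.9. The members and lists were chosen with earlier results of these data known. Genes named were the 9, Plcb1, from the lists some of those most abundant or with the 2 lowest p against blank, the ryanodine receptors, and the 2 nearest in pattern.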

Additional observations from a re-analysis of the deposited data

Results flagged for a closer look

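In 30 groups of 6 hearts (the 9 genes and Plcb1 in FPKM), 2 held a heart far from the others, where chance picks about 1 in 20 groups. Itpr1 was 4.628 FPKM in PLCβ1a 14, below the next heart of its group at 5.363. In CPM the same heart, at 48.9, was the lowest of its group but close to the others, and it had the lowest total count of the series. Plcb1 was 5.279 FPKM in PLCβ1a 21, above the next heart at 3.869, and that heart was also the highest of its group in CPM, at 29.2.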

How the results depend on the processing

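The count of 0 of 9 genes called held in all 3 comparisons at an FDR below 0.05, with DESeq2, edgeR's exact test, other scalings, no filter, only the groups compared, mitochondrial genes left out, limma on log2 FPKM with 0.1 or 1 added, and each of the 18 hearts left out. It held too without robust estimation and without the 3 hearts of lowest total count (blank 26, blank 32 and PLCβ1a 14), both chosen after seeing the data. Of 783 fold changes under these settings, 757 kept their direction and 26 reversed, in 10 of 27 results, and the lowest FDR was 0.307 (Itpr1, PLCβ1a against blank, without the 3 hearts).

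The cause of the reversals was not tested. Itpr3 in PLCβ1a against blank became -0.0498 with limma at 0.1 and -0.0257 at 1 added, and Itpr2 became -0.0143 without the 3 hearts. With single hearts left out, the fold changes that crossed 0 ran, for PLCβ1b against blank, from -0.029 to 0.054 (Pip5k1b), -0.056 to 0.0015 (Itpr2) and -0.0043 to 0.12 (Itpr3). For PLCβ1a against blank they ran from -0.028 to 0.026 (Pi4kb), -0.069 to 0.022 (Pip5k1a), -0.033 to 0.019 (Cds2), -0.00304 to 0.0535 (Itpr2) and -0.071 to 0.092 (Itpr3). Between PLCβ1b and PLCβ1a they ran from -0.0101 to 0.0272 (Pi4ka) and -0.0024 to 0.12 (Itpr3). Others kept their sign but moved by more than 1.5 times. For PLCβ1b against blank these ran from 0.0518 to 0.0915 (Pi4ka), -0.146 to -0.0675 (Pi4kb), -0.178 to -0.0817 (Pip5k1a), 0.00788 (without blank 30) to 0.081 (Pip5k1c), -0.0655 to -0.0145 (Cds2) and 0.0486 to 0.115 (Itpr1). For PLCβ1a against blank they ran from 0.0441 to 0.0853 (Pi4ka), -0.107 to -0.0333 (Pip5k1b) and 0.0433 to 0.15 (Pip5k1c). Between PLCβ1b and PLCβ1a they ran from -0.14 to -0.0589 (Pi4kb), -0.146 to -0.0655 (Pip5k1a), 0.0418 to 0.123 (Pip5k1b), -0.0928 to -0.00269 (Pip5k1c), -0.0485 to -0.0187 (Cds2) and -0.0704 to -0.00429 (Itpr1). Settings other than single hearts went beyond these ranges in some results. With limma at 1 added, Pi4ka was 0.0273 for PLCβ1b and 0.0172 for PLCβ1a, and Itpr1 0.0315 for PLCβ1b and 0.065 for PLCβ1a. With limma at 0.1 added, Pi4kb was -0.0657 for PLCβ1a and Itpr3 0.143 between PLCβ1b and PLCβ1a. Without the 3 hearts Itpr1 was 0.136 for PLCβ1b and 0.176 for PLCβ1a, Itpr2 -0.069 for PLCβ1b and Itpr3 0.0964 for PLCβ1a.

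The number of all genes called moved more. For PLCβ1b against blank it was 12, and became 7 at an FDR below 0.05, 24 with DESeq2, 22 with the exact test, 24 without a filter, 5 with limma at either addition, and 22 without the 3 hearts; without robust estimation it was again 12. With single hearts left out it was 2 to 18, with 2 without blank 34 or PLCβ1b 17, 4 without PLCβ1b 4 and 6 without PLCβ1b 6. For PLCβ1a against blank it was 17, and became 4 at an FDR below 0.05, 45 with the exact test, 29 without a filter, 10 with only the groups compared, 6 with limma at either addition and 10 without robust estimation. With single hearts left out it was 3 to 19, with 3 without blank 34 or PLCβ1a 11, 7 without PLCβ1a 7, 8 without blank 32, 9 without PLCβ1a 14 and 10 without blank 36. Between PLCβ1b and PLCβ1a it was 0, and became 1 with DESeq2 (Plcb1), 2 with the exact test (Plcb1 and Rmrp), 1 without robust estimation (Plcb1), 2 without the 3 hearts (Bcl6 and Rnu12) and 0 to 1 with single hearts left out (Rnu12 without PLCβ1a 14, Plcb1 without PLCβ1b 8). These genes are named after their values were seen. Without the 3 hearts Col3a1 was called, at an FDR of 0.0313 for PLCβ1b and 0.0622 for PLCβ1a.

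The family shares in blank hearts moved by less than 1 SD between hearts with counts per kilobase or any blank heart left out. No paired analysis was possible because mouse numbers are not shared between groups.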
